A study of Mus musculus with 28 samples.

Results

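The comparison described here set mutant DICER1 against a vector that carried no DICER1, in mouse embryonic stem (ES) cells that lack their own Dicer. All cells had the genotype Dicer-/- and carried the vector pLD-puro-ENvA. The mutant cells carried DICER1 D1709A (4 arrays), DICER1 E1705K (3 arrays) or DICER1 D1810Y (3 arrays), and the control cells carried eGFP (3 arrays). Samples were chosen by their transgene and vector labels, which gave 10 mutant arrays and 3 eGFP arrays of the 28 in the series, and the 3 mutants were weighted equally whatever their number of arrays. Arrays used for context were of wild-type DICER1 in the same Dicer-/- cells (WT-DICER1), of the untransduced Dicer-/- line (Dicer-null) and of a Dicer+/+ line (Dicer-WT). Some WT-DICER1 arrays carried the PGKnvA vector in place of ENvA, and WT-DICER1 means below are those of its ENvA arrays. The labels state neither the species of the transgene nor the promoter that drives it. They also do not say whether replicates of a group were separate cultures.

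DICER1 cuts hairpin precursors of microRNAs (miRNAs) into short duplexes, and 1 strand of each duplex then guides Argonaute proteins to messenger RNAs with a matching seed, which lowers those messenger RNAs. The enzyme makes its cuts with a pair of ribonuclease domains. RNase IIIb makes the cut that frees the strand from the 5-prime arm of the hairpin (5p), and RNase IIIa makes the cut that frees the 3-prime arm (3p). Hotspot mutations such as those compared here change metal-binding residues of RNase IIIb and are known from tumours of the DICER1 syndrome. In mouse ES cells the most abundant miRNAs come from the miR-290 and miR-302 clusters, and their seed-bearing strand lies on the 3p arm.

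The mature sequences below are shown because the target lists described further on are named after miRNAs with these seeds. Members of the lists are reported targets, and seed matches in their messenger RNAs were not looked for. They come from RefSeq (build GRCm38.p6), run 5-prime to 3-prime, and have bases 2 to 8, the seed, in capitals. The first 5 share the seed AAGUGCU, are all 3p strands, and lie on chromosomes 7 and 3.
mmu-miR-291a-3p: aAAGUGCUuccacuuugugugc
mmu-miR-294-3p: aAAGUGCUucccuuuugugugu
mmu-miR-295-3p: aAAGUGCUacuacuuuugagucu
mmu-miR-302b-3p: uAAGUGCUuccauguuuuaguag
mmu-miR-302d-3p: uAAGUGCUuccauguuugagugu
The next strands are 5p strands. Those of miR-17, miR-106a and miR-20b have a seed whose bases are shifted by 1 position from the seed above, and let-7d stands for the let-7 family.
mmu-miR-17-5p: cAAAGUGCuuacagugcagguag
mmu-miR-106a-5p: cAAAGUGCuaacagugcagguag
mmu-miR-20b-5p: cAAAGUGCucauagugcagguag
mmu-let-7d-5p: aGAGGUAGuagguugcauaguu
In the RefSeq table all 5 mature miRNAs with the seed AAGUGCU were 3p strands. The table held 7 with AAAGUGC, 6 of them named as 5p strands, and 11 with GAGGUAG, 9 of them named as 5p strands, and 0 of either kind was named as a 3p strand.

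Values below are log2 expression values of 1 probe set a gene, differences are mutants minus eGFP on that log2 scale, and a gene is called at an adjusted p under 0.05 in limma. No size of change is given where a compared group averaged under 6.42, the level of the expression filter, because the background of the arrays was not measured. The deposited values obey exact relations between arrays. These tie the first arrays of D1709A and E1705K to those of other groups, and the fourth array of D1709A to a WT-DICER1 array, while no eGFP or D1810Y array is in them. With only the arrays outside these relations (2 of D1709A, 2 of E1705K, 3 of D1810Y and 3 of eGFP), 4607 genes were called higher and 3592 lower. Array 4 of D1709A stood apart from arrays 1 to 3 for many genes named below, and without it the counts were 4611 and 3594. The mean of the 8 ES cell markers lay between 12.22 and 12.44 on the mutant arrays and between 12.37 and 12.39 on the eGFP arrays.

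Dicer1 itself was examined first. Its probe set read between 9.08 and 9.39 on the mutant arrays (median 9.27), against 9.45, 9.45 and 9.28 on the eGFP arrays. The groups overlapped, and the difference was -0.12 (SE 0.0493, adjusted p = 0.0335 in limma). That call was lost in limma without array 1 of eGFP (adjusted p = 0.179), array 2 of eGFP (0.167), array 1 of E1705K (0.0582) or array 2 of E1705K (0.0503). The mean was 9.27 in the mutants and 9.27 in the Dicer-null line, while the Dicer-WT line stood at 10.68. Whether this mouse probe set reads the transgene was not tested, so transgene levels were not compared.

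Many genes differed between mutant and eGFP cells. Against the eGFP vector, 7895 of 13956 genes were called (56.6%), 4426 higher (31.7%) and 3469 lower (24.9%). Changes of 2-fold or more were called for 151 genes upward (1.08%) and 216 downward (1.55%). All 10 mutant arrays lay above all 3 eGFP arrays for 2776 genes (19.9%) and below them for 2396 (17.2%). The eGFP cells and the Dicer-null line, neither of which carries DICER1, also differed, with 20.2% of genes called higher and 27.4% lower in eGFP cells. The median change of the mutants against eGFP over all genes was 0.03, so the changes below hardly differ from changes relative to the typical gene. Each mutant on its own gave calls in both directions, with 3573 higher (25.6%) and 3126 lower (22.4%) for D1709A. The counts were 4288 (30.7%) and 3161 (22.6%) for E1705K, and 4051 (29%) and 3205 (23%) for D1810Y. Changes of 2-fold or more were called upward for 127 genes (0.91%) and downward for 169 (1.21%) in D1709A. E1705K had 200 (1.43%) and 278 (1.99%) of them, and D1810Y had 209 (1.5%) and 283 (2.03%). These 3 comparisons share the eGFP arrays.

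**Figure D1:**
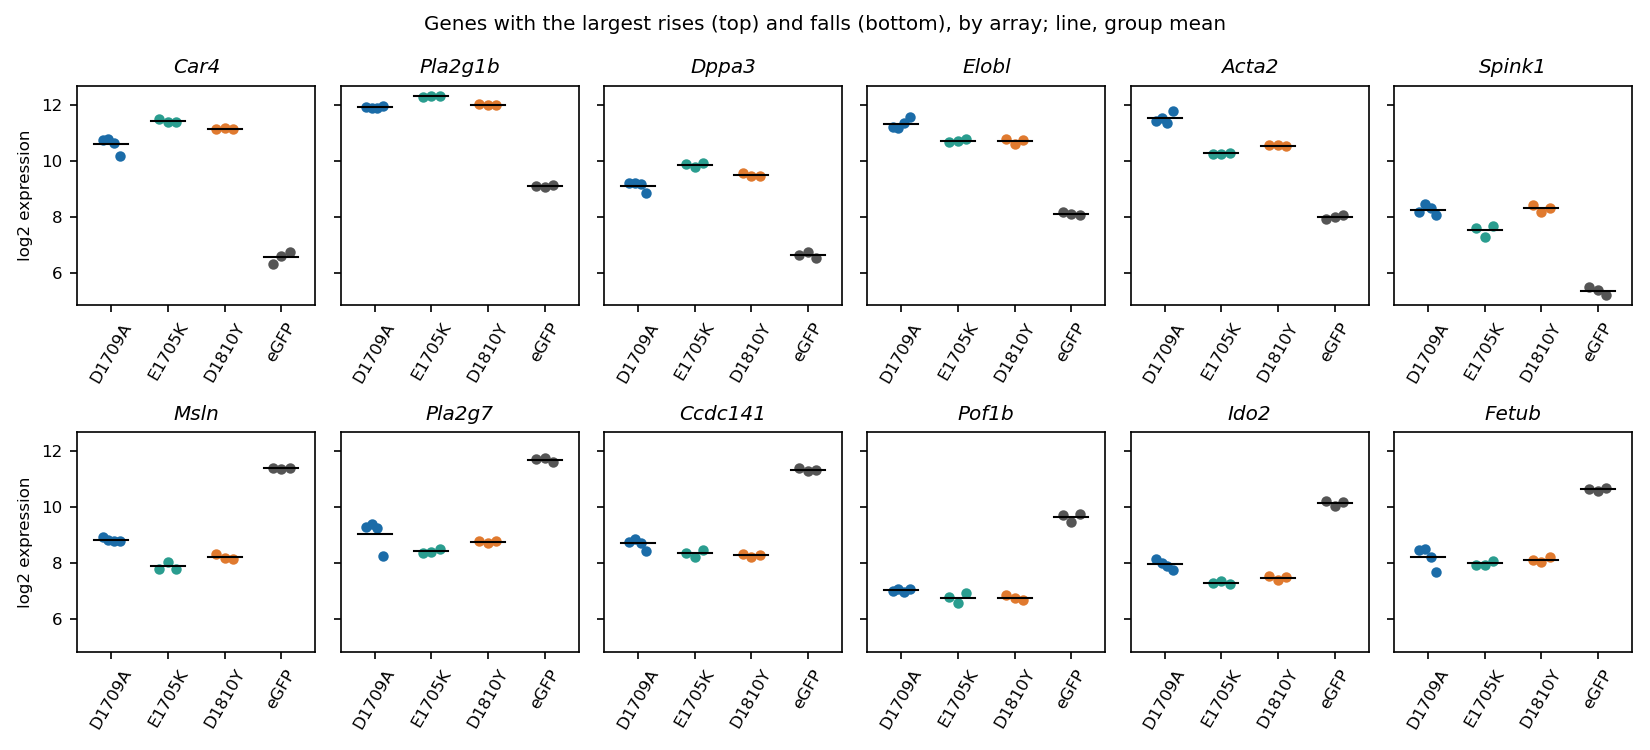
Log2 expression (vertical axis, shared) of the 6 genes with the largest rises (top) and the 6 with the largest falls (bottom). Each point is 1 array of D1709A (4), E1705K (3), D1810Y (3) or eGFP (3), and lines are group means. In every panel all 10 mutant arrays lie on 1 side of the 3 eGFP arrays, which was a condition for choosing these genes.

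Car4, a membrane-anchored carbonic anhydrase, rose most. It read 10.18 at the lowest, 11.15 at the median and 11.51 at the highest mutant array, against 6.30, 6.59 and 6.76 on the eGFP arrays. The difference of 4.51 (SE 0.111, adjusted p = 9.18e-21 in limma) is a 22.7-fold rise. Its mean was 9.67 with WT-DICER1 and 9.74 in the Dicer-WT line, so the mutants also exceeded both of these. Pla2g1b, a secreted phospholipase, read from 11.87 to 12.32 (median 12.00) on mutant arrays and 9.12, 9.05 and 9.14 on eGFP arrays (difference 2.97, SE 0.0347, adjusted p = 1.57e-27).

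Dppa3, Dnmt3l and Lin28a were among the 14 largest rises. Dppa3, a maternal factor that protects DNA methylation in the zygote, read from 8.87 to 9.92 (median 9.45) on mutant arrays, against 6.62, 6.76 and 6.54 on eGFP arrays. Dnmt3l, the cofactor of the de novo DNA methyltransferases, read from 11.74 to 12.20 (median 12.07), against 9.45, 9.31 and 9.59. Lin28a, an RNA-binding protein that blocks let-7 maturation, read from 10.25 to 10.74 (median 10.60), against 8.17, 8.47 and 8.30. The differences were 2.85, 2.61 and 2.27. In the mutants all 3 genes stood above WT-DICER1, by 0.37, 0.40 and 0.63, and these differences were called (adjusted p = 1.41e-04, 5.53e-07 and 4.69e-09). Sfmbt2, a Polycomb-related gene that hosts a miRNA cluster in an intron, read from 10.53 to 11.40 (median 11.17) on mutant arrays and 9.02, 8.87 and 8.94 on eGFP arrays, a difference of 2.18. Elobl, named for its likeness to elongin B, was 2.80 higher in the mutants.

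Acta2 and Cnn1, which belong to the list of SRF and YAP targets, were also among the 14. Acta2, the smooth muscle actin, read from 10.25 to 11.77 (median 10.56) on mutant arrays, against 7.92, 8.01 and 8.05 on eGFP arrays (difference 2.78, SE 0.0768, adjusted p = 6.46e-20). Cnn1, smooth muscle calponin, read from 7.62 to 9.92 (median 9.14), against 6.80, 6.84 and 6.63, and its lowest mutant value was that of array 4 of D1709A. Its difference was 2.38 (SE 0.259, adjusted p = 1.75e-08). Neither gene was called between mutants and WT-DICER1 in limma (adjusted p = 0.693 and 0.426). In the Dicer-WT line, however, Acta2 and Cnn1 averaged only 7.74 and 6.30, against mutant means of 10.78 and 9.14. Selenop, which carries selenium in plasma, and Gpx3, a secreted glutathione peroxidase that contains selenium, were 2.26 and 2.11 higher than with eGFP. Pde2a, a cyclic nucleotide phosphodiesterase, was 2.13 higher, and the X-linked gene Fndc3c1 was 2.33 higher. Spink1, a trypsin inhibitor, read from 7.30 to 8.46 on mutant arrays and 5.49, 5.37 and 5.19 on eGFP arrays, so it rose from a level under 6.42. Spink1 averaged only 6.21 with WT-DICER1 and 5.38 in the Dicer-WT line, so the mutants stood above every context group named here.

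Msln, the surface protein mesothelin, fell most. It read from 7.81 to 8.93 (median 8.27) on mutant arrays, against 11.42, 11.36 and 11.41 on eGFP arrays, a difference of -3.08 (SE 0.0502, adjusted p = 2.45e-24). The mutant mean was close to 8.29 with WT-DICER1 and 8.12 in the Dicer-WT line. Pla2g7, which degrades platelet-activating factor, read from 8.27 to 9.41 (median 8.76) on mutant arrays and 11.72, 11.76 and 11.63 on eGFP arrays (difference -2.95, SE 0.183, adjusted p = 5.77e-13). Ccdc141, a coiled-coil gene, read from 8.23 to 8.87 (median 8.42) on mutant arrays and 11.42, 11.29 and 11.33 on eGFP arrays, a difference of -2.89. Pla2g7 fell to a level 0.53 below WT-DICER1, whereas Ccdc141 was not called between mutants and WT-DICER1 (-0.04, adjusted p = 0.661).

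Pof1b, an actin-binding protein of epithelia, fell by 2.79 and Krt17, a keratin, fell by 2.51. Ido2, a tryptophan-degrading enzyme, fell by 2.57. With the Dicer-null line as control the changes of Pof1b and Ido2 were smaller (-1.61 and -0.92), since eGFP cells stood above that line by 1.18 and 1.65. Xaf1, an interferon-inducible antagonist of inhibitors of apoptosis, fell by 2.46. Fcgr2b, an inhibitory Fc receptor, fell too (-2.52) and averaged close to the filter level in the mutants (6.44). Fetub, a plasma protease inhibitor (-2.54), Prss35 (-2.48) and the alcohol dehydrogenase Adh7 (-2.30) fell as well. C1qtnf9, Ube2dnl1 and Skida1 fell to levels under 6.42, against eGFP means of 8.50, 8.45 and 8.45. Krt17 kept a higher level in the mutants than with WT-DICER1 (9.34 against 8.56, adjusted p = 7.57e-08).

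Over all genes the mutants were called higher than WT-DICER1 for 30.2% and lower for 25.8%. They were higher for 10 of these 14 rises, lower for 2 (Elobl and Gpx3) and not called for 2. Of the 14 falls, they were called higher than WT-DICER1 for 6, lower for 4 and not called for 4. Between the parental lines, Dicer-null cells were called higher for all 14 falls, where 30.7% of all genes were, and lower for 10 of the 14 rises, where 27.2% were. For all 28 genes the mutant mean lay on the same side of the untransduced Dicer-null line as of the eGFP vector. Over all genes the mutants were called higher than that line for 33.8% and lower for 33.2%. The 28 genes were chosen on these same mutant arrays, so the comparisons with WT-DICER1 and the Dicer-null line are not independent of that choice.

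**Figure D2:**
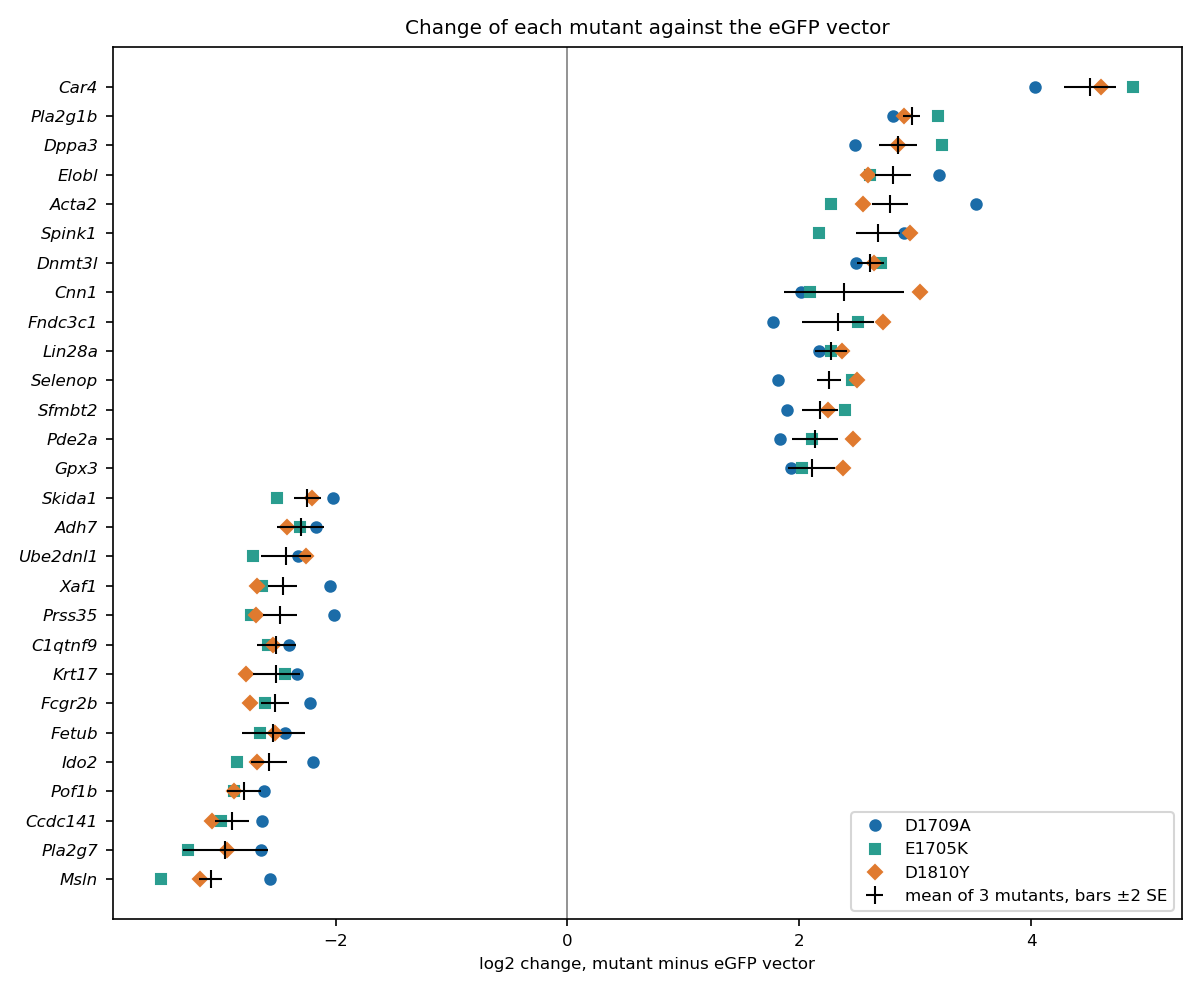
Log2 change against the eGFP vector (horizontal axis) of the 14 genes with the largest rises and the 14 with the largest falls. Points are D1709A, E1705K and D1810Y, and black ticks with bars are the mean of the 3 mutants ± 2 SE. Spink1, C1qtnf9, Ube2dnl1 and Skida1 have a group mean under 6.42. D1709A has the smallest change in 11 rises and 13 falls, a count that was not made over all genes.

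The size of the response varied among the mutants. All 28 genes were called for each mutant on its own, and 13 of the 14 rises and 10 of the 14 falls differed among the mutants in an F test that uses no eGFP array. Over all genes that F test called 4021 (28.8%), of which 50 (0.358%) spanned 2-fold or more. D1709A had the smallest change of the 3 mutants for 11 of the 14 rises and 13 of the 14 falls, as the plot of changes by mutant shows. How often this held over all genes was not counted, so these counts are not read as a trait of D1709A. Array 4 of D1709A stood apart as the lowest of its group for the rises Cnn1, Dnmt3l, Dppa3 and Sfmbt2 and the fall Pla2g7. Msln was lower by 2.56 in D1709A, by 3.50 in E1705K and by 3.17 in D1810Y, with an F-test adjusted p of 5.05e-11. Acta2 went the other way, with its largest rise in D1709A (3.52, against 2.27 in E1705K and 2.55 in D1810Y).

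The genes that differed most among the mutants were named by the range of the 3 mutant means. D1810Y stood above the other mutants for 6 of these 8 genes. Fabp7, a brain fatty-acid-binding protein, averaged 6.25 in D1709A, 7.18 in E1705K and 7.89 in D1810Y, against 6.14 with eGFP. Gabra3, a GABA receptor subunit on the X chromosome, averaged 6.55, 7.55 and 8.15 in the same order, against 5.88 with eGFP. Both genes formed 3 separate groups of mutant arrays. They were chosen for a large range on these same arrays, so that separation adds no support. Actc1, cardiac actin, differed from eGFP by 1.10 in D1709A, 0.79 in E1705K and 2.34 in D1810Y, and Car3, a carbonic anhydrase of muscle, by 1.28, 1.76 and 2.82. Has2, a hyaluronan synthase, differed by 0.56, 0.86 and 1.90. Penk, which encodes proenkephalin, differed in direction, at -0.77 in D1709A, -0.42 in E1705K and 0.68 in D1810Y, so the mean over mutants was not called (-0.17, adjusted p = 0.0837). Srgn, the granule proteoglycan serglycin, differed from eGFP by -0.29 in D1709A, 1.15 in E1705K and 0.44 in D1810Y. Pmp22, a myelin protein, was highest in D1709A (2.36, against 1.02 in E1705K and 1.12 in D1810Y).

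The lists of reported targets began with those of the AAGUGCU seed, called miR-290 group targets here, which fell together. Of 18 tested targets, 16 fell and 0 rose, with a median of -0.68, where 24.9% of all genes fell and the median was 0.03. For 15 of the 18, all mutant arrays lay below all eGFP arrays, where this held for 17.2% of all genes. The median was -0.49 for D1709A, -0.83 for E1705K and -0.69 for D1810Y. Lefty2 and Lefty1 inhibit Nodal signalling. Lefty2 read from 8.20 to 8.72 (median 8.58) on mutant arrays, against 10.03, 9.92 and 10.07 on eGFP arrays, a difference of -1.49 (SE 0.0623, adjusted p = 2.76e-16). Lefty1 read from 10.11 to 10.79 (median 10.53), against 11.49, 11.57 and 11.58, a difference of -1.06. Neither gene overlapped between the groups, but both stayed higher in the mutants than with WT-DICER1, by 0.81 and 1.55 (adjusted p = 8.4e-12 and 9.51e-13).

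Other targets fell to the level reached with WT-DICER1 or below it. Dazap2, a small proline-rich protein, read from 9.94 to 10.38 (median 10.15) on mutant arrays and 11.52, 11.54 and 11.55 on eGFP arrays (difference -1.38, SE 0.0398, adjusted p = 1.51e-19). Rbl2, a retinoblastoma-related repressor of the cell cycle, read from 7.29 to 7.79 (median 7.57) on mutant arrays, against 8.81, 8.56 and 8.75 on eGFP arrays. Both were lower in the mutants than with WT-DICER1, by -0.25 and -0.21. Bmi1, a Polycomb protein, read from 6.92 to 7.48 on mutant arrays and 8.31, 8.36 and 8.08 on eGFP arrays, and its mutant mean did not differ detectably from WT-DICER1 (adjusted p = 0.984). Casp2, an apoptotic caspase (-0.88), Lats2, a Hippo pathway kinase (-0.79), and Mbd2, a reader of methylated DNA (-0.76), also fell. Over the list the mutants were called higher than WT-DICER1 for 6 targets and lower for 7, with a median of -0.06. The members not called were Arid4b (-0.09) and Akt1 (0.03).

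Target lists of 5p miRNAs held members called in both directions, where 31.7% of all genes rose and 24.9% fell. Of 18 miR-17 group targets (seed AAAGUGC), 8 fell and 3 rose, with a median of -0.10. The cell-cycle repressor Rbl1 (-0.68), the receptor Tgfbr2 (-0.52), the kinase Jak1 (-0.45) and the BMP receptor Bmpr2 (-0.36) fell, and Vegfa, a growth factor for vessels, rose (0.95). Against the Dicer-null line Bmpr2 was not called (0.0365) and Vegfa was lower (-0.31). Of 19 let-7 targets, 7 rose (36.8%) and 5 fell (26.3%), with a median of 0.03, which are close to the shares and the median of all genes. Lin28a (2.27) and Myc (1.47) rose, and the chromatin protein Hmga2 (-0.61) and the receptor Tgfbr1 (-0.56) fell. Tgfbr2 is in both the miR-290 list and the miR-17 list. The lists were not tested against each other.

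**Figure D3:**
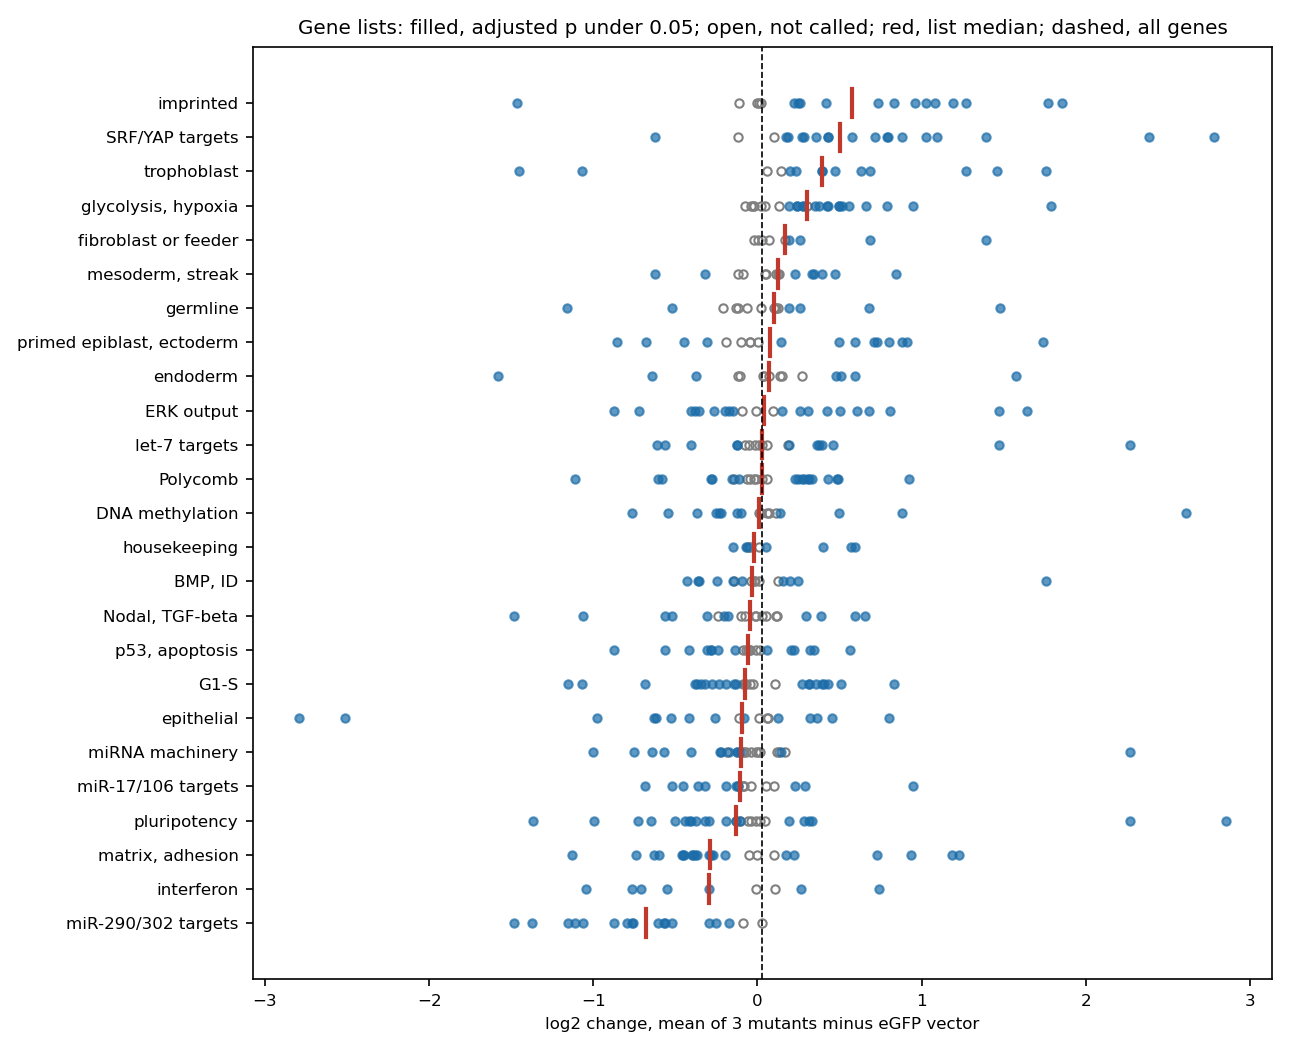
Log2 change of each tested member of 25 gene lists (rows), as the mean of 3 mutants minus the eGFP vector. Filled points are called, open points are not, red bars are list medians, and the dashed line is the median of all genes. The miR-290 group target list has the lowest median (-0.68) and imprinted genes the highest (0.57).

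Of 24 tested genes of the miRNA pathway, 11 fell and 2 rose, where 24.9% and 31.7% of all genes did. The falls included Argonaute genes and their partners in silencing. Mov10, an RNA helicase, read from 10.78 to 11.11 on mutant arrays and 11.95, 11.96 and 12.04 on eGFP arrays (adjusted p = 6.14e-20). Ago1, an Argonaute protein, fell by 0.75, and Tnrc6b and Tnrc6a, its GW182 partners in silencing, fell by 0.64 and 0.57. None of Mov10, Ago1 and Tnrc6b overlapped between mutant and eGFP arrays. Ago1 was not called between mutants and WT-DICER1 (0.04, adjusted p = 0.394). The processing enzyme Drosha (0.12), its partner Dgcr8 (0.00) and the exporter Xpo5 (0.13) were not called.

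Probe sets with miRNA gene symbols were described by range and counts. Most are named for hairpins. Host transcripts such as Mir17hg and Mir99ahg, neither of them called, are counted with these. Of 300 on the array, 112 passed the filter, and 6 of these rose and 16 fell, where 31.7% and 24.9% of all genes did. Their changes ran from -0.92 for Mir15a to 1.47 for Mir363. For Mir302b, Mir302c and Mir302d the mean over mutants was not called against eGFP, but the mutants differed in the F test (adjusted p = 1.9e-05, 6.17e-06 and 2.72e-06). They differed from eGFP by -0.55, -0.65 and -0.47 in D1709A and by 1.26, 1.33 and 1.32 in D1810Y. All 3 were called above WT-DICER1. What RNA species these probe sets read was not tested. Mir363 read from 7.74 to 8.74 on mutant arrays, against 6.87, 6.45 and 6.84 on eGFP arrays (difference 1.47, SE 0.0899, adjusted p = 4.38e-13). It belongs to the cluster of Mir106a on the X chromosome, and its neighbours were looked up after its value was seen. Mir106a read from 6.44 to 7.01 on mutant arrays and 5.85, 5.67 and 5.86 on eGFP arrays. Mir20b read from 5.63 to 6.41 on mutant arrays and 5.42, 5.01 and 5.09 on eGFP arrays, and Mir19b-2 from 5.58 to 6.49 against 5.40, 5.08 and 5.11. No mutant array overlapped the eGFP arrays for any of these 4 probe sets, though the last 3 did not pass the filter. Their eGFP values lay under the filter level, as did all Mir20b mutant arrays and the Mir19b-2 mutant mean (6.04). For Mir92-2 of the same cluster, which lay under the filter level throughout, the groups overlapped, at 5.64 to 6.13 on mutant arrays and 5.59, 5.69 and 5.52 on eGFP arrays. Mir363 stood at 6.50 to 6.79 on the WT-DICER1 arrays of both vectors, below every mutant array. Mir15a and Mir15b, which share the seed AGCAGCA, fell by 0.92 and 0.53. The 3p strand of miR-363 and the 5p strands of both miR-15 hairpins are given because their probe sets moved.
mmu-miR-363-3p: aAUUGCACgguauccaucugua
mmu-miR-15a-5p: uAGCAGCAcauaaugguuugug
mmu-miR-15b-5p: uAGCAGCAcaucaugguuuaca

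Targets of SRF and YAP, transcription regulators that respond to actin assembly and tension, rose. Of 20 tested, 17 rose and 1 fell, with a median of 0.50, where 31.7% of all genes rose. Besides Acta2 and Cnn1, Tagln, the actin-binding protein transgelin, read from 8.76 to 10.10 (median 9.97) on mutant arrays and 8.25, 8.11 and 8.20 on eGFP arrays (difference 1.39). Cnn2, a calponin, read from 10.76 to 11.73 (median 11.43), against 10.28, 10.22 and 10.29 (difference 1.10). Array 4 of D1709A was the lowest D1709A array for Cnn1, Cnn2 and Tagln, at 7.62, 10.76 and 8.76, and the highest for Acta2, at 11.77. The receptor kinase Axl (1.03), myosin light chain Myl9 (0.88) and the tropomyosins Tpm2 (0.80) and Tpm1 (0.72) rose too, while Lima1, an actin-bundling protein, fell by 0.62. For 4 of the 20 genes the mutants were called higher than WT-DICER1, and for 10 lower. Between the parental lines the median difference of the list, Dicer-null minus Dicer-WT, was 0.41, so the rise in the mutants was not toward the Dicer-WT line.

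Tagln is also a fibroblast marker, so markers of fibroblasts or feeder cells were read beside this list. Of 15 such markers on the array only 9 passed the filter, and 4 of these rose and 0 fell. Over all genes 31.7% rose and 24.9% fell. Pdgfrb, a growth factor receptor, was 0.68 higher, and the collagen Col1a1 (0.26) and the matrix protein Fbln2 (0.19) were also called higher. The collagens Col1a2 (0.17), Col3a1 (0.03), Col6a1 (0.07) and Col6a3 (0.00) were not called. The mean level of the 15 markers lay between 6.66 and 6.87 on mutant arrays and between 6.45 and 6.61 on eGFP arrays. Dcn, Lum, Postn, Fap, Lox and S100a4 were under the filter level. The part of such cells in the changes was not tested, and in a bulk sample fewer cells of a type cannot be told from less RNA per cell.

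Imprinted genes, which are expressed from 1 parental copy, rose in most cases. Of 18 tested, 13 rose and 1 fell, where 31.7% and 24.9% of all genes did, and the median was 0.57. Phlda2, which restrains placental growth, read from 12.22 to 12.78 (median 12.56) on mutant arrays and 10.74, 10.59 and 10.80 on eGFP arrays (difference 1.86, SE 0.0417, adjusted p = 1.72e-21). Sgce, a sarcoglycan, read from 9.25 to 9.51 on mutant arrays and 7.69, 7.55 and 7.63 on eGFP arrays (difference 1.77). Its neighbour Peg10, a retrotransposon-derived gene, rose by 1.19, Grb10, a growth-restricting adaptor, by 1.08, Mest by 1.02 and Igf2, a fetal growth factor, by 0.96. Plagl1, a zinc finger regulator of other imprinted genes, read from 8.71 to 9.90 on mutant arrays and 10.80, 10.67 and 10.83 on eGFP arrays (difference -1.46). Impact (-0.01), Slc38a4 (0.02), Ndn (-0.11) and Meg3 (0.01) were not called. For 9 imprinted genes the mutants were called higher than WT-DICER1, and for 3 lower.

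Ascl2 is both imprinted and a trophoblast regulator. Of 14 tested trophoblast genes 10 rose and 2 fell, where 31.7% and 24.9% of all genes did, and their median was 0.39. Bmp4, a BMP ligand, read from 9.49 to 10.75 (median 10.59) on mutant arrays and 8.78, 8.62 and 8.59 on eGFP arrays (difference 1.76), and 9.49 was array 4 of D1709A. Against the Dicer-null line it was 0.85 higher. Fgfr2, the receptor for FGF4 in trophoblast, read from 9.52 to 10.31 on mutant arrays and 8.46, 8.42 and 8.43 on eGFP arrays (difference 1.46). Ascl2 read from 8.40 to 9.42 on mutant arrays and 7.66, 7.45 and 7.82 on eGFP arrays (difference 1.27), and WT-DICER1 stood at 7.51, near the eGFP level. Gata3 (0.69) and Cdx2 (0.63), transcription factors of the trophoblast lineage, rose as well. Plet1, a surface protein of trophoblast progenitors (-1.45), and Tead4, the transcription factor upstream of Cdx2 in the embryo (-1.07), fell. Elf5, Prl3d1 and Tpbpa, markers of established trophoblast, were not tested. The mean of the trophoblast list lay between 8.27 and 8.53 on mutant arrays and between 8.10 and 8.19 on eGFP arrays.

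Pluripotency genes fell more often than they rose, with 14 of 27 lower and 6 higher, where 24.9% and 31.7% of all genes were. Their median was -0.13, and at 2-fold or more 2 rose and 1 fell. Prdm14, a regulator of the naive state, read from 7.98 to 8.79 (median 8.53) on mutant arrays and 9.88, 9.74 and 9.89 on eGFP arrays (difference -1.37). Klf2, another naive-state factor, read from 9.75 to 10.14 on mutant arrays and 10.91, 10.78 and 11.03 on eGFP arrays (difference -0.99). Of the core factors, Nanog (-0.30) and Pou5f1 (-0.11) fell and Sox2 (-0.05) was not called. In the list of 8 ES cell markers 4 fell and 2 rose, the latter being Utf1 (0.33) and Zfp42 (0.28). Among 18 genes of primed epiblast and early ectoderm, 9 rose (50%) and 4 fell (22.2%). Lef1, a Wnt effector, rose by 1.74 and Sox4 by 0.91, while Pax6, an eye and brain regulator, fell by 0.85 and Otx2 by 0.68. Pax6 was not called against the Dicer-null line (-0.28, adjusted p = 0.101). Of 15 mesoderm and streak genes 6 rose (40%) and 2 fell (13.3%). Among them were the T-box factor Eomes (0.47) and the VEGF receptor Kdr (-0.62), and the ligand Wnt3 rose from a level under 6.42. Against the Dicer-null line Eomes (-0.10) and Kdr (0.0083) had the opposite sign and were not called. Of 15 endoderm genes 4 rose (26.7%) and 3 fell (20%), which is near the shares of all genes. Dab2, an endocytic adaptor, rose by 1.58, the receptor Lrp2 by 0.60, the matrix protein Sparc fell by 0.64, and Apob fell to a level under 6.42. Apob was not called against the Dicer-null line (adjusted p = 0.561). The mean of the endoderm list lay between 7.44 and 7.80 on mutant arrays and between 7.59 and 7.72 on eGFP arrays.

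Of 18 DNA methylation genes, 8 fell (44.4%) and 4 rose (22.2%), where 24.9% and 31.7% of all genes did. The enzymes that add new methylation rose, with Dnmt3a at 9.72 to 10.28 on mutant arrays against 9.21, 9.26 and 9.20 on eGFP arrays (difference 0.88) and Dnmt3b higher by 0.50. Dnmt1, the maintenance enzyme, was not called (0.01). The readers Mbd2 (-0.76) and Mbd1 (-0.55) and the demethylating enzymes Tet3 (-0.37), Tet1 (-0.24) and Tet2 (-0.22) fell. Dnmt3a stood 0.74 above its level with WT-DICER1 (adjusted p = 7.92e-13). Of 25 Polycomb genes 11 rose (44%) and 7 fell (28%). Phf19, a partner of PRC2, was higher by 0.92, Phc3 (-0.61) and Cbx8 (-0.58) were lower, and Ezh2 (0.03) was not called. Of 15 germline genes 4 rose (26.7%) and 2 fell (13.3%). Sycp3, of the meiotic chromosome axis, rose from a level under 6.42, Tdrd12 rose by 0.68, and Hormad1 fell by 1.16.

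Cell-cycle genes of the G1-S transition went both ways, with 9 of 27 higher (33.3%) and 12 lower (44.4%). Over all genes 31.7% rose and 24.9% fell. Ccnd2, a D-type cyclin, read from 9.20 to 10.03 (median 9.59) on mutant arrays and 10.67, 10.65 and 10.61 on eGFP arrays (difference -1.07). Against WT-DICER1 it was 1.03 higher, and against the untransduced Dicer-null line it was 0.30 higher, so its direction depends on the control. Cdkn1c, an imprinted inhibitor of cyclin-dependent kinases, rose by 0.83. Of 21 genes of p53 and apoptosis 6 rose (28.6%) and 8 fell (38.1%), among them Casp2 (-0.88), Ei24 (-0.57), Casp8 (-0.41) and Zmat3 (0.57). Zmat3 was not called against the Dicer-null line (0.05, adjusted p = 0.501).

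Signalling lists held calls in both directions. Of 20 Nodal and TGF-beta genes 7 fell (35%) and 4 rose (20%), where 24.9% and 31.7% of all genes did. Besides Lefty1 and Lefty2, the receptors Tgfbr1 (-0.56) and Tgfbr2 (-0.52) and the ligand Nodal (-0.31) fell, and the ligands Tgfb1 (0.65) and Tgfb2 (0.60) rose. Of 16 BMP and ID genes 4 rose (25%) and 6 fell (37.5%). Id1 (-0.43) and Id2 (-0.36), transcriptional targets of BMP, fell while Bmp4 rose, and Id1 was 0.66 higher than in the untransduced Dicer-null line. Of 22 ERK output genes 10 rose (45.5%) and 9 fell (40.9%). Dusp4, a phosphatase that turns ERK off, read from 7.56 to 8.57 on mutant arrays and 6.74, 6.49 and 6.76 on eGFP arrays (difference 1.64). Myc (1.47) and Spry2 (0.81), a receptor kinase antagonist, rose, and Phlda1 (-0.88) and Nab2 (-0.72), a corepressor of EGR factors, fell. For 14 of the 22 ERK output genes the mutants were called lower than WT-DICER1, and for 4 higher.

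Of 24 matrix and adhesion genes 15 fell (62.5%) and 6 rose (25%), and their median was -0.29. Over all genes 24.9% fell and 31.7% rose. Itgav, the integrin alpha-V chain, read from 9.87 to 10.55 (median 9.99) on mutant arrays and 11.24, 11.20 and 11.18 on eGFP arrays (difference -1.13). Basement membrane collagens Col4a2 (-0.63) and Col4a1 (-0.60), the protease inhibitor Timp1 (-0.74), vimentin (Vim, -0.46) and N-cadherin (Cdh2, -0.45) fell. Itga1, a collagen-binding integrin chain, rose by 1.23 and the gelatinase Mmp2 by 1.18, while Timp2 rose from a level under 6.42. Of 18 epithelial genes 9 fell (50%) and 5 rose (27.8%). Besides Pof1b and Krt17, the claudin Cldn3 fell (-0.98), and Krt18, a simple keratin, rose by 0.80.

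Glycolysis and hypoxia-responsive genes rose against the eGFP vector, in 17 of 25 cases with 0 falls and a median of 0.30. Over all genes 31.7% rose and 24.9% fell. Bnip3, a mitochondrial protein induced by low oxygen, read from 9.93 to 11.12 (median 10.25) on mutant arrays and 8.66, 8.51 and 8.86 on eGFP arrays (difference 1.79), and 11.12 was array 4 of D1709A. Vegfa read from 9.01 to 9.56 on mutant arrays and 8.42, 8.08 and 8.45 on eGFP arrays (difference 0.95). The phosphofructokinases Pfkp (0.79) and Pfkl (0.66), Aldoa (0.50) and Pgk1 (0.50) rose. Against WT-DICER1 the mutants were called lower for 18 of the 25 genes and higher for 3, with a median of -0.37. The eGFP cells were themselves lower than the Dicer-null line for 14 of these genes, where 27.4% of all genes were lower and 20.2% higher. Against the Dicer-null line the mutants were higher for 10 and lower for 8, so this pattern depends on the control. Vegfa (-0.31) and Pfkp (-0.45) were lower than in the Dicer-null line, and Bnip3 was not called there (0.25, adjusted p = 0.268).

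Of 9 tested interferon-response genes, 5 fell and 2 rose, where 24.9% and 31.7% of all genes did. Irf9, a subunit of the interferon-activated transcription complex, read from 8.45 to 8.80 on mutant arrays and 9.67, 9.66 and 9.67 on eGFP arrays (difference -1.04). Oas1a (-0.76) and Irgm1 (-0.71) fell, though Oas1a was not called against the Dicer-null line (0.25), and Bst2, which tethers virus particles, rose (0.74). Of 10 housekeeping controls 4 rose and 3 fell, with B2m (0.59) and Hprt (0.57) the most changed. The only tested gene of the 2-cell-stage list, Eif1a, rose by 0.30.

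Genes that differ between the parental lines were examined as a wider measure, since neither line is part of the comparison of mutants with eGFP. Dicer-null cells were called at least 2-fold higher than Dicer-WT cells for 650 genes (4.66%). In the mutants 545 of them fell (83.8%, where 24.9% of all genes fell), 34 rose and 71 were not called, with a median of -0.64 (quartiles -0.98 and -0.29). For 466 of them every mutant array lay below every eGFP array, where this held for 17.2% of all genes. Dicer-null cells were at least 2-fold lower for 320 genes (2.29%), of which 220 rose in the mutants (68.8%, where 31.7% of all genes rose), 33 fell and 67 were not called, with a median of 0.39 (quartiles 0.08 and 0.79). The medians were -0.58 and 0.35 for D1709A, -0.68 and 0.48 for E1705K, and -0.66 and 0.32 for D1810Y.

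**Figure D4:**
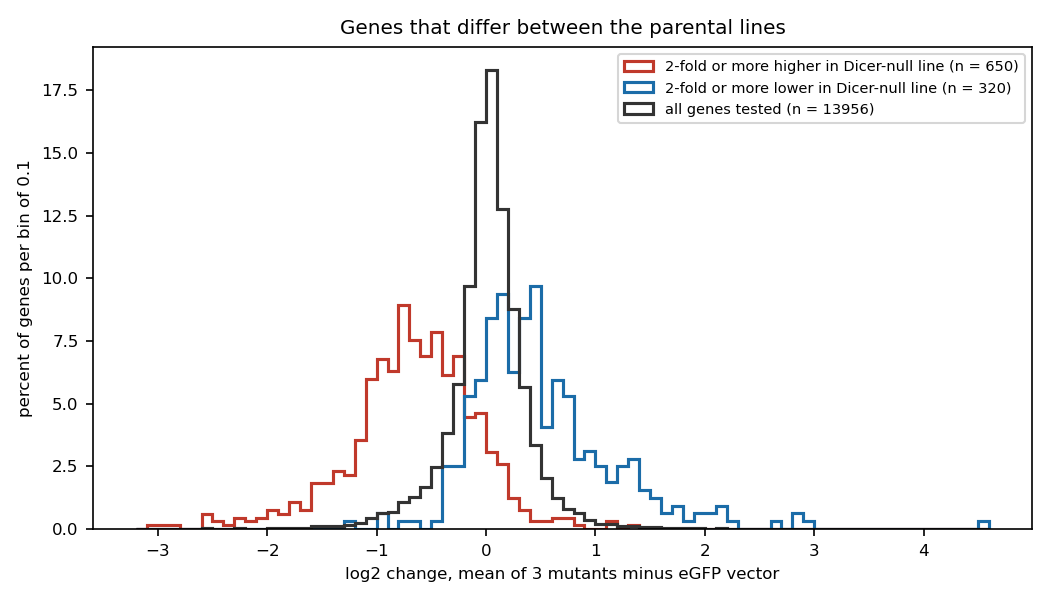
Percent of genes per bin of 0.1 (vertical axis) by log2 change, mean of 3 mutants minus the eGFP vector (horizontal axis). Genes higher in the Dicer-null line (red, 650) centre on -0.64, genes lower in it (blue, 320) on 0.39, and all 13956 genes (black) on 0.03.

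These genes had also moved between the lines without DICER1. The eGFP cells differed from the untransduced Dicer-null line by a median of -0.33 for the 650 genes and 0.38 for the 320. The mutants still differed from the Dicer-WT line by a median of 0.44 for the 650 genes and -0.39 for the 320. Both lists were chosen on the Dicer-null and Dicer-WT arrays that enter these differences, so the directions are partly set by that choice. Against WT-DICER1, the mutants were called higher for 282 of the 650 genes and lower for 172, with a median of 0.08. For the 320 genes they were called higher for 71 and lower for 186, with a median of -0.19.

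**Figure D5:**
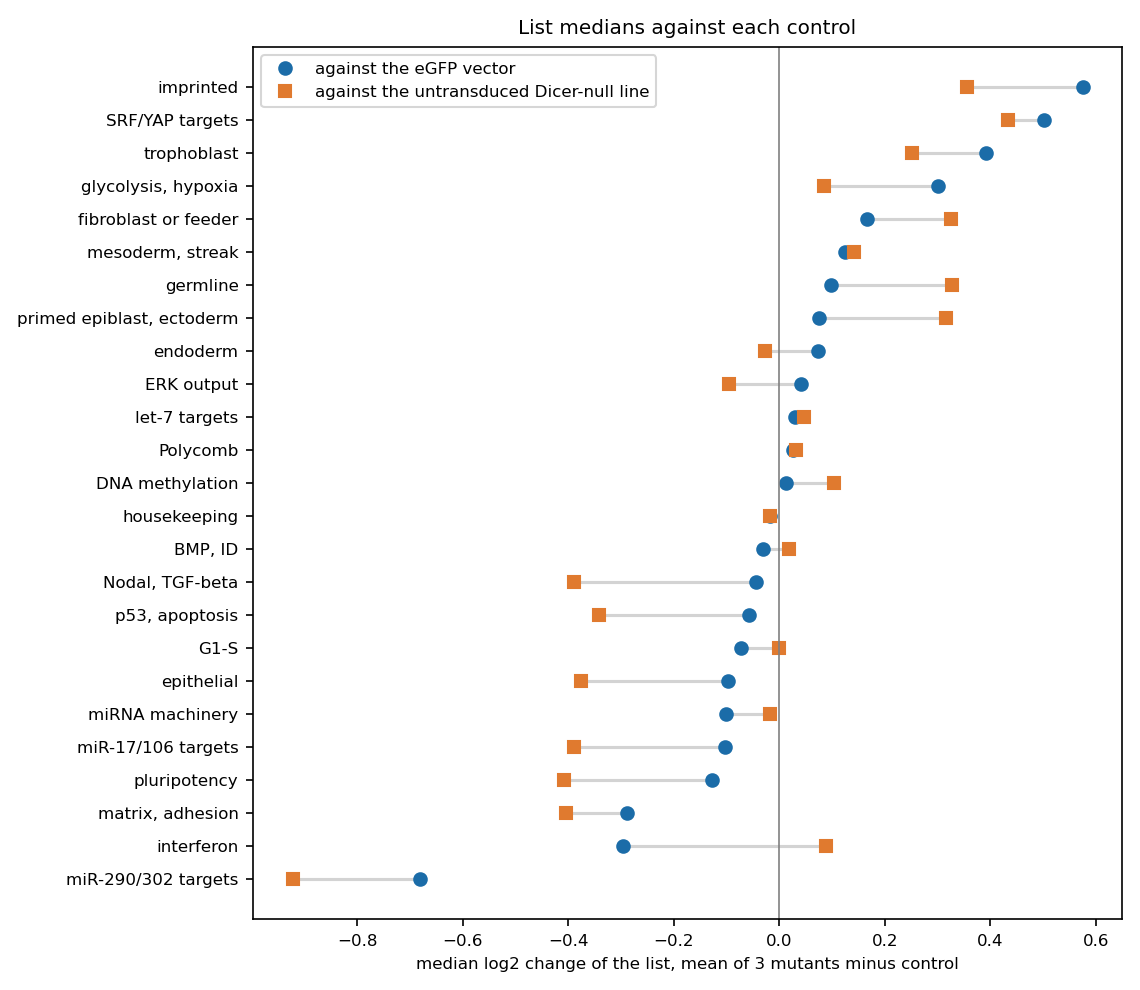
Median log2 change of each gene list (rows), as the mean of 3 mutants minus the eGFP vector (circles) or minus the untransduced Dicer-null line (squares). The miR-290 group targets are lowest against both controls (-0.68 and -0.92).

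The untransduced Dicer-null line served as a second control with its own 3 arrays. Against it, 16 of the 18 miR-290 group targets were lower and 1 was higher (median -0.92), while eGFP cells were lower than that line for 11 of the 18 and higher for 2 (median -0.26). SRF and YAP targets were higher in 13 of 20 cases and lower in 5, imprinted genes in 13 and 2 of 18, trophoblast genes in 8 and 3 of 14, and matrix genes were higher in 7 and lower in 15 of 24. Over all genes 33.8% were called higher and 33.2% lower against this line. The miR-17 group targets, which went both ways against eGFP, were lower in 13 of 18 cases and higher in 0 (median -0.39), while eGFP cells were already lower for 12 of the 18 and higher for 2 (median -0.29). Of the 123 named genes, 8 had the opposite sign against this line and 13 had a change of the same sign smaller by over 1.5 times, such as Hormad1 (-0.70), Sgce (1.09) and Pfkl (0.38). Another 22 had a change larger by over 1.5 times, such as Phlda2 (3.13), Myc (2.59) and Tgfbr2 (-1.50). The eGFP cells carry the vector and the Dicer-null line does not, so in this second comparison the vector and the mutant DICER1 cannot be told apart.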

How the data were processed

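The authors deposited 1 log2 value for each probe set and array (Affymetrix Mouse Gene ST), and the submitters' processing notes name RMA and Partek 6.6. Their settings: not given in the sources used here. Scanner files were not used. Per the labels' protocols, RNA came from cells in log-phase growth. Of 35556 probe sets, 21789 had 1 gene symbol, and where several shared 1 of the 19938 symbols the brightest on average was kept. Genes whose mean lay under the 30th percentile (6.42) were left out, which left 13956 genes, of which 13915 matched the GRCm38.p6 table by gene ID.

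All 28 arrays entered 1 model in limma 3.58.1 (R 4.3.3) with 9 groups, a PGKnvA vector term and trended variances. Figures used matplotlib 3.10.9 under Python 3.11.15. Tests were two-sided, with Benjamini-Hochberg adjustment over all genes tested. The main contrast was the mean of D1709A, E1705K and D1810Y minus eGFP. The scripts were tested on simulated data. No label states that replicates were separate cultures, so p-values measure only the spread between arrays, which may be technical. Precision is limited by the number of arrays. The fit had 18 residual degrees of freedom, and the 3 exact relations between arrays leave 16 of them free, so p-values are approximate. Of these relations, the first arrays of 5 groups deviate from their groups by amounts that sum to 0 within 1.83e-04, and the fourth arrays of D1709A and WT-DICER1 do so within 1.33e-04.

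The groups compared, the gene lists and the rule for named genes were chosen with earlier results of these data known. The rule named Dicer1, the 14 largest called rises and falls whose arrays did not overlap, up to 4 called members a list, and the 8 genes with the largest range among the mutant means. Predicted genes, miRNA hairpins, small nucleolar RNAs, olfactory receptors and immunoglobulin or T-cell receptor segments were not eligible. Other list members and the X-linked genes were named after their values were seen. Replicate numbers were checked for pairing by the correlation of deviations from the group means. These were 0.287, 0.655 and 0.317 between E1705K and eGFP, which meets the criterion for pairs (over 0.1 for every number), and the blocked fit moved its count of calls by less than 1.5 times. They were -0.0945, -0.214 and -0.0307 for D1709A and 0.374, 0.678 and 0.00547 for D1810Y, which do not. Between E1705K and D1810Y they were 0.467, 0.684 and 0.211, which meets the criterion, while the main F test among mutants used no block. Alternatives changed the arrays fitted, the weighting, the block, the centring, the filter, the probe sets per gene, the variance model and the control, and left out each array.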

Additional observations from a re-analysis of the deposited data

Results flagged for a closer look

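Array 4 of D1709A stood far from the other 3 arrays of its group. For each named gene, the gap from the outermost array to its neighbour was divided by the range of the 4 arrays, and 28 of 123 genes passed the critical value of Dixon's test, where chance flags about 5% of groups. In 27 of the 28 the outermost array was array 4. It was the lowest for 22 genes, with the gap as a share of the range in parentheses, namely Actc1 (0.887), Ascl2 (0.924), Bmp4 (0.91), Car3 (0.871), Ccnd2 (0.847), Cnn1 (0.975), Cnn2 (0.95) and Dnmt3l (0.835). The same held for Dppa3 (0.945), Eomes (0.879), Gabra3 (0.841), Id1 (0.833), Itga1 (0.866), Lrp2 (0.902), Myc (0.919) and Pax6 (0.839). It held as well for Phlda1 (0.897), Pla2g7 (0.877), Sfmbt2 (0.866), Srgn (0.949), Tagln (0.912) and Utf1 (0.858). Array 4 was the highest for Bnip3 (0.962), Hmga2 (0.865), Mmp2 (0.878), Oas1a (0.853) and Pmp22 (0.856). For Mbd2 the outermost array was array 3 of D1709A, the lowest, at 0.968. Cnn1 was at 7.62 on array 4 and between 9.13 and 9.17 on arrays 1 to 3, and Bnip3 was at 11.12 on array 4, next to 9.98 on the nearest array. Leaving out array 4 of D1709A changed neither the direction nor the call of any of the 123 genes.

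The change against eGFP differed among the mutants by at least 1 on the log2 scale for 13 named genes, each called in the F test among mutants. The range of the 3 changes, which equals that of the 3 mutant means, was 1.25 for Acta2, 1.56 for Actc1, 1.54 for Car3, 1.03 for Cnn1, 1.64 for Fabp7, 1.61 for Gabra3 and 1.33 for Has2. It was 1.07 for Krt18, 1.45 for Penk, 1.05 for Phf19, 1.34 for Pmp22, 1.44 for Srgn and 1.11 for Tagln. The D1709A mean of Fabp7 (6.25) lies under the filter level. Its range is therefore listed only because the gene met this criterion, and it is not read as a size of change. Krt18 rose by 1.28 in D1709A, 0.21 in E1705K and 0.90 in D1810Y. Phf19 rose by 0.48, 1.53 and 0.75 in the same order, and Tagln by 1.51, 0.78 and 1.89.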

How the results depend on the processing

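With eGFP kept as control, 0 of the 123 named genes changed direction under the alternatives run, and 7 lost or gained a call, among them Dicer1, whose call was lost in 10 settings. Those for Dicer1 include the 13 arrays alone (adjusted p = 0.0541 in limma). With the 10 mutant arrays as 1 group in limma, Fabp7 (adjusted p = 0.0565), Srgn (0.402) and Lrp2 (0.0811) were no longer called. Without array 1 of eGFP, Col1a1 (0.24) and Fbln2 (0.16) were not, and without array 3 of eGFP Col1a1 (0.19) was not. Penk was called without array 2 of D1709A (-0.19). With the untransduced Dicer-null line as control, 425 genes were called higher and 581 lower at 2-fold or more, and 10 glycolysis and hypoxia genes were called higher. Genes that changed direction there were Id1 (0.66), Bmpr2 (0.0365), Ccnd2 (0.30), Vegfa (-0.31), Pfkp (-0.45), Oas1a (0.25), Kdr (0.0083) and Eomes (-0.10), and Utf1 (0.04), Apob, Bnip3 (0.25), Zmat3 (0.05), Pax6 (-0.28) and Dicer1 were no longer called. The cause was not tested. With 3-fold in place of 2-fold lists of the parental lines, the medians were -0.97 and 0.93, which follows from keeping genes with larger differences. Some alternatives, with the array sets of the exact relations as blocks or left out, were chosen after seeing the data. With the 13 arrays of the 4 groups alone, 4369 genes were called higher and 3440 lower, and 3648 differed among the mutants. With these arrays and the replicate number as a block, 5036 genes were called higher and 3884 lower, D1709A, E1705K and D1810Y had 7711, 8586 and 8352 calls, and 5925 genes differed among the mutants. That fit lost no call of a named gene and gained that of Penk (-0.15), and array 4 of D1709A is alone in its block. Leaving out 1 array at a time gave 3974 to 4611 genes higher and 3069 to 3594 lower, of which 147 to 156 and 212 to 244 changed 2-fold or more. It gave 5984 to 6752 calls for D1709A, 6778 to 7775 for E1705K, 6599 to 7590 for D1810Y and 3286 to 4091 among the mutants. The medians of the parental lists then lay between -0.66 and -0.62 and between 0.35 and 0.41. Lists had 16 miR-290 and miR-302 targets lower, 10 to 11 trophoblast, 13 imprinted, 16 to 17 SRF and YAP and 17 glycolysis genes higher, and 14 to 15 matrix genes lower. No signal over background was measured, which limits statements on genes near the filter level.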

Other observations

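Genes on the X chromosome made up a larger share of the large rises than of the genes tested. This was looked at after the values were seen and was not tested. Of 151 genes that rose at least 2-fold in the mutants, 24 (15.9%) were X-linked, where 433 of 13915 tested genes with a known chromosome (3.11%) were. Of 215 that fell at least 2-fold, 7 (3.26%) were X-linked. Over all X-linked genes, 42.3% were called higher and 25.6% lower, with a median of 0.07, while the medians of the other chromosomes ran from -0.01 to 0.06. For all 24 genes every mutant array lay above every eGFP array. They were chosen as at least 2-fold higher on these same arrays, so that separation adds no support.

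Fndc3c1 (2.33), Armcx2 (1.92), Nrk, a kinase of the placenta (1.73), Pim2, a survival kinase (1.66), and Map7d3, a microtubule-binding protein (1.58), had the largest rises among X-linked genes with both groups above the filter level. Usp51, a deubiquitinase, averaged 7.61 in the mutants and 5.53 with eGFP, a level under the filter. Against WT-DICER1, the mutants were called higher for 19 of the 24 genes and lower for 2, where 30.2% and 25.8% of all genes were. Between the parental lines, 18 of the 24 were called lower in Dicer-null cells and 1 higher, where 27.2% and 30.7% of all genes were. All 24 were also higher in the mutants than in the untransduced Dicer-null line, by 0.95 to 3.49, and 33.8% of all genes were called higher there. The comparisons with WT-DICER1 and the Dicer-null line reuse the mutant arrays on which the 24 were chosen, so they are not independent of that choice.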
